A study of Mus musculus with 6 samples.

Results

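The genes described here are the unnamed noncoding and predicted genes of the deposited table, those that carry only a placeholder symbol: Gm followed by a digit, or a clone name ending in Rik. They were chosen by symbol alone, and 3 genes of that form (Gm12185, 2310015K22Rik and F630206G17Rik) were set aside by the rule. This left 51 of the 709 genes in the table, 25 with a Gm symbol and 26 with a Rik symbol. RNA-seq was measured in the tibialis anterior (TA) muscle, a fast muscle at the front of the shin, of 3 NS-DADm mice and 3 wild-type (WT) mice, 1 library per mouse. NS-DADm mice carry knock-in mutations in every tissue, which include the deacetylase-activating domain (DAD) of the corepressor NCoR (gene Ncor1), and the WT controls carried none. All 6 mice were C57BL/6 and 21 weeks old. The comparison asks which muscle transcripts differ when HDAC3 is present but the DAD that switches its deacetylase on is mutated. Because the mutations are whole-body, effects that start in other tissues and effects within muscle cannot be told apart, and in whole muscle fewer cells of a type cannot be told apart from less RNA per cell.

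Long noncoding RNAs are transcripts without a recognised protein product. Many lie between genes or run antisense to a coding gene, most are made at low levels, and some act on nearby genes, on chromatin or as hosts of microRNAs. NCoR is held at genes by nuclear receptors and other factors, where HDAC3 removes acetyl groups from histones, a change linked to lower transcription. Genes with a placeholder symbol are mostly such RNAs, but also coding genes that were never given a name.

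The label fits 39 of the 51 genes, which GENCODE M21 annotates as noncoding. The other 12 are protein-coding. Of these, 5 have a regular symbol in that release: 9030617O03Rik is Dglucy, 6030419C18Rik is Insyn1, 2210013O21Rik is Nbdy, 5730508B09Rik is Fam241a and 1810041L15Rik is Shisal1. Gm2a was taken in by its spelling, since it is the named gene of the GM2 ganglioside activator, a lysosomal cofactor of ganglioside breakdown. Gm15446 is coding in GENCODE and a long noncoding RNA in RefSeq.

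Sequences of 2 kinds are shown, because the results below turn on where these genes lie. A330023F24Rik is the host transcript of the microRNA genes Mir29b-2 and Mir29c, on the same strand of chromosome 1. The miR-29 family is known for targeting collagen and other matrix mRNAs. Its mature 3p arms, from RefSeq (GRCm38.p6), are given 5′ to 3′ with the seed (bases 2 to 8) in capitals, and both share the seed AGCACCA.
mmu-miR-29b-3p (chr1:195037091-195037113): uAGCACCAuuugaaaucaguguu
mmu-miR-29c-3p (chr1:195037600-195037621): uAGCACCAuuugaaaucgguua

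Promoter windows in RefSeq (GRCm38.p6), from 250 bases before to 50 after a start, were found for 29 of the 51 genes, with 31 windows. Shown 5′ to 3′ on the gene's own strand are those of Gm5532, the intergenic RNA with the largest rise at a mean of 50 or more normalized counts, and of Gm29773 and 0610009L18Rik, whose windows also span the start of an actin gene on the other strand (Acta1, skeletal alpha-actin, and Actg1, cytoplasmic gamma-actin). Capitals mark matches, on either strand, to AGGTCA, the half-site of many nuclear receptors, or to CANNTG, the E-box bound by myogenic factors.
Gm5532 (chr1:155527062-155527361, minus strand): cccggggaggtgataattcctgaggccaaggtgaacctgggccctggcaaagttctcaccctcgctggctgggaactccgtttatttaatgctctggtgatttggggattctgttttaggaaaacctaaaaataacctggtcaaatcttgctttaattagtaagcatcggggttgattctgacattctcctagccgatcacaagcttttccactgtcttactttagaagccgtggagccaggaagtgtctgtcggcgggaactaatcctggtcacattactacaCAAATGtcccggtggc
Gm29773 (chr8:123894526-123894825, plus strand): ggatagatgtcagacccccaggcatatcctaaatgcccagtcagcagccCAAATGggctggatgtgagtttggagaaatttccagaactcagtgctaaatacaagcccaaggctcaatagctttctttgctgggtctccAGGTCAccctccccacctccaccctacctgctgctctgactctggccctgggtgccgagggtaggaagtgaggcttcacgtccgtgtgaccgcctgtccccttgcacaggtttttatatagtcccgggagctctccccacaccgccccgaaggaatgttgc
0610009L18Rik (chr11:120348428-120348727, plus strand): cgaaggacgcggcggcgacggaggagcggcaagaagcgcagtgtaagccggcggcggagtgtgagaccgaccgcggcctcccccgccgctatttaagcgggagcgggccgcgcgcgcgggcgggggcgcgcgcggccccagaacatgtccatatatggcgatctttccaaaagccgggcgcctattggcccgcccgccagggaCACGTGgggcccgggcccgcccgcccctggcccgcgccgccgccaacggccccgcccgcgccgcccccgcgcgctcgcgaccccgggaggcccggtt

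AGGTCA stood in 4 of the 31 windows (12.9%), those of 2310040G24Rik, A330074K22Rik, Gm10390 and Gm29773, against 16.3% of the 32851 promoter windows of the whole RefSeq table. CANNTG stood in 23 of the 31 (74.2%), against 72.3% of all windows. The shares near these starts were thus close to those of promoters at large, and a match is a match of letters only.

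In NS-DADm muscles 28 of the 51 genes were higher and 23 lower than in WT muscles, so that 54.9% were higher. All 51 passed the limma test on log2(normalized count + 1) at an adjusted p under 0.05, but so did 100% of the table: it lists only genes that the authors had already called between these 6 libraries, and 50.9% of all of them were higher and 49.1% lower. The adjusted p-values of the 51 genes ran between 1.54e-05 and 0.0114 and describe genes selected for this difference, not independent evidence. The smallest p that an exact two-sided permutation test can give for 1 gene is 0.1 with 3 mice against 3. The NS-DADm and WT libraries did not overlap in 50 of the 51 genes (98.0%), against 97.9% of the table. The exception was Gm45221, a transcript inside the Picalm gene, with 70.8, 109 and 43.5 normalized counts in NS-DADm and 17.2, 30.0 and 48.0 in WT.

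With limma p-values adjusted as if 20000 genes had been tested, every unlisted gene being taken as unchanged, 24 of the 51 genes passed (47.1%), 13 higher and 11 lower, against 50.9% of the table. Direction and call rate of the unnamed genes thus stayed near those of the table. Size did not: 31 of the 51 (60.8%) differed at least 2-fold by group means, 20 higher and 11 lower, against 30.5% of the table. Their median fold in either direction was 2.18, against 1.62 for the other 658 listed genes.

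This larger fold went with lower abundance. Over the 6 libraries the unnamed genes averaged between 13.2 and 3321 normalized counts with a median of 70.0, against a median of 379 for the other listed genes. Per kilobase of exon the median level was 23.5 normalized counts for the unnamed genes and 75.6 for the others. Among genes averaging under 50 normalized counts, 16 unnamed genes had a median fold of 3.41 and 67 other genes 3.45. Between 50 and 500, the medians were 2.09 for 28 unnamed genes and 1.76 for 315 others, and above 500 they were 1.34 for 7 unnamed genes and 1.44 for 276 others. The medians were thus nearer to each other within each range than over all genes. In the middle range the unnamed genes still had the larger one. The smallest fold in the lowest range was 2.09 among the unnamed genes and 1.92 among the others.

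**Figure D1:**
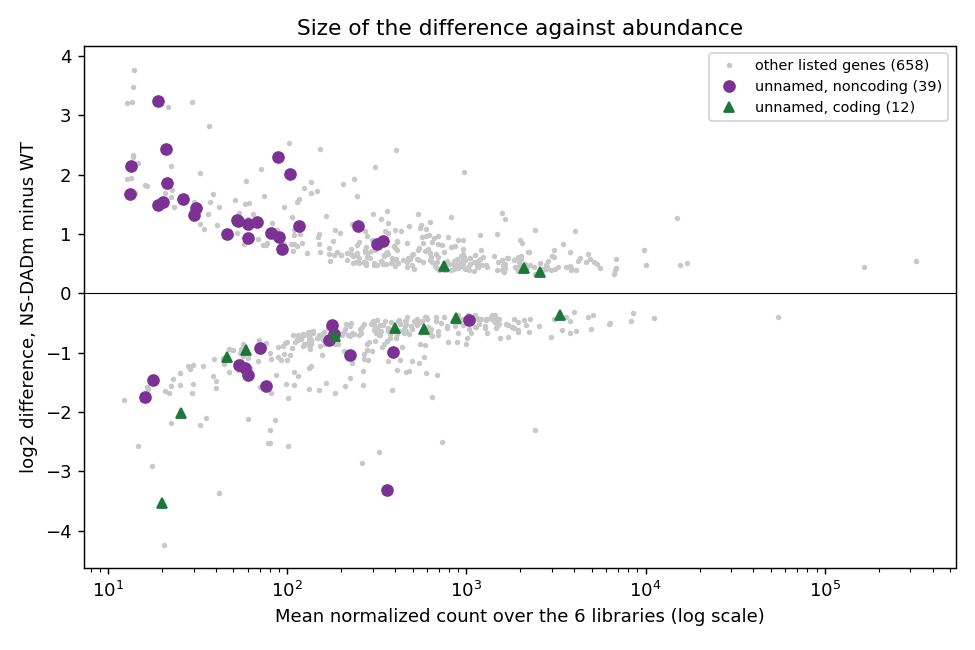
The log2 difference between NS-DADm and WT muscles (vertical axis, limma estimate) is plotted against the mean normalized count over the 6 libraries (horizontal axis, log scale) for all 709 listed genes, with the 39 noncoding and 12 coding unnamed genes marked. The differences narrow as abundance grows, the unnamed genes lie mostly to the left (median 70.0, against 379 for the others), and no gene lies near 0, since only called genes are listed.

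The annotated classes were split unlike each other by direction. Of the 39 noncoding genes, 25 were higher and 14 lower in NS-DADm, with a median fold of 2.34, and 28 of them differed at least 2-fold. Of the 12 coding genes, 3 were higher and 9 lower, with a median fold of 1.51, and 3 differed at least 2-fold. Of the 632 other coding genes of the table, 313 were higher (49.5%) and 319 lower, with a median fold of 1.61, and 166 differed at least 2-fold. The lean of these 12 genes towards lower levels was thus not seen among the other coding genes. It is not a trait of unnamed genes as such, since it includes genes with a regular name. Of those, Insyn1, Nbdy, Fam241a, Shisal1 and Gm2a were lower and Dglucy was higher. RNAs that GENCODE classes as long intergenic made up 20 of the 51 genes, of which 16 were higher. Gm26762 is in this class although it overlaps the coding gene Gpi1 on the opposite strand. The 9 antisense RNAs had 3 higher and 6 lower, and the 6 single-exon transcripts that GENCODE lists as TEC, a class still awaiting experimental proof, had 4 higher and 2 lower. The remaining classes were 2 processed transcripts (1 higher, 1 lower), 1 bidirectional-promoter RNA (lower) and 1 processed pseudogene (higher). The other 23 noncoding genes of the table, 2310015K22Rik and F630206G17Rik among them, had 19 higher and 4 lower, with a median fold of 3.02. The lean of noncoding genes towards higher levels was thus also seen outside the unnamed genes. These counts were not tested.

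**Figure D2:**
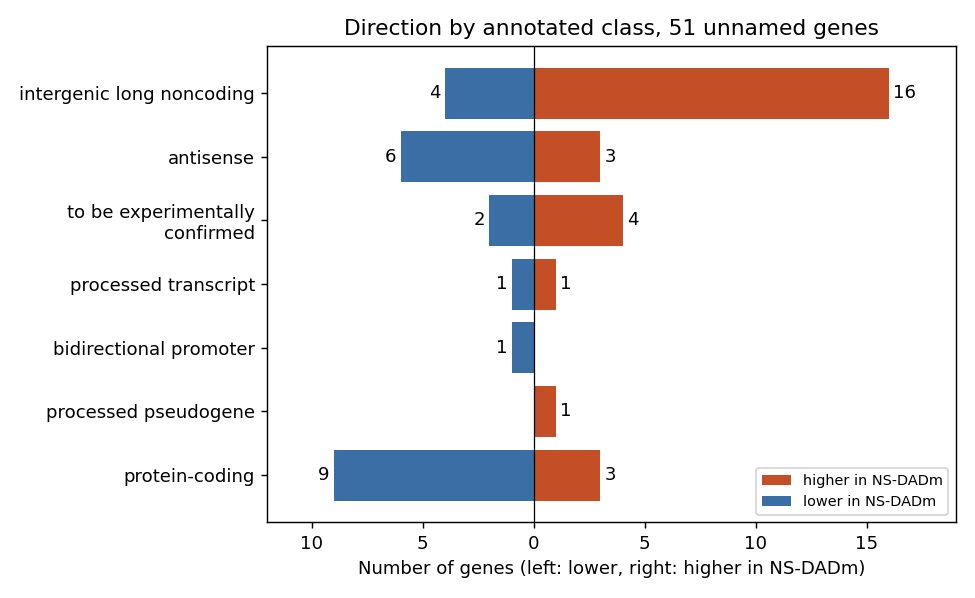
Bars count the unnamed genes of each GENCODE M21 class, to the right those higher and to the left those lower in NS-DADm than in WT muscles. RNAs classed as long intergenic lie mostly on the right (16 of 20) and protein-coding genes mostly on the left (9 of 12). Of the other listed coding genes, not drawn, 313 of 632 were higher.

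Among the unnamed genes at a mean of 50 or more normalized counts, Gm5532, a long intergenic RNA on chromosome 1, rose most. Gm5532 had 85.5, 189 and 171 normalized counts in the NS-DADm libraries, against 25.4, 36.4 and 23.0 in WT. All NS-DADm libraries lay above all WT libraries, and the 149 ± 55.4 of NS-DADm stood 5.26-fold over the 28.3 ± 7.14 of WT (SD, n = 3 each; log2 difference 2.30, SE 0.31, limma adjusted p = 1.62e-04). 2310039L15Rik, an intergenic RNA on chromosome 10, had 154, 171 and 164 normalized counts in NS-DADm and 56.1, 50.98 and 22.1 in WT, with little spread among the mutant mice. It averaged 3.79-fold higher in NS-DADm (log2 difference 2.002, SE 0.31, limma adjusted p = 3.27e-04).

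By limma log2 difference, and leaving out Gm45221 for its overlap, the next 4 genes lay between 2.14-fold and 2.43-fold. The intergenic RNA Gm5420 had 79.2, 98.9 and 44.7 normalized counts in NS-DADm, against 40.7, 31.9 and 19.2 in WT, so that its lowest NS-DADm library stood just above the highest WT library. 4632428C04Rik was tight in NS-DADm, at 96.1, 88.4 and 96.6, and had 34.4, 30.9 and 60.5 in WT. Gm36936 is a single-exon transcript within Nedd4, a ubiquitin ligase gene, on the same strand, and had 86.6, 97.0 and 64.0 in NS-DADm and 39.8, 20.03 and 55.7 in WT. Reads of unspliced Nedd4 RNA and of Gm36936 cannot be told apart in such a table.

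A330023F24Rik, the miR-29 host shown above, had 325, 423 and 284 normalized counts in NS-DADm, against 158, 138 and 167 in WT. Groups were well apart, at 344 ± 71.3 in NS-DADm and 154 ± 14.6 in WT (SD, n = 3 each), a 2.23-fold rise (log2 difference 1.13, SE 0.17, limma adjusted p = 2.71e-04). Its exons overlap 1079 bases of exons of Cd46, a complement regulator gene on the opposite strand. The mature microRNAs were not measured here.

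B230312C02Rik had the largest fall among the better-read genes. This intergenic RNA lies at chr2:180370491-180385885 on the minus strand, 3163 bases from Mir1a-1 and 12494 bases from Mir133a-2, both on the opposite strand and both encoding microRNAs abundant in muscle. In NS-DADm it had 65.5, 53.8 and 62.8 normalized counts, against 378, 997 and 611 in WT. Every WT library was several-fold above every NS-DADm library, although the WT mice also varied among themselves. Means were 60.7 ± 6.12 in NS-DADm and 662 ± 313 in WT (SD, n = 3 each), a 10.9-fold fall (log2 difference -3.32, SE 0.28), and its limma adjusted p of 1.54e-05 was the lowest of the 51 genes.

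6530402F18Rik, a processed transcript that shares 558 exon bases with Ntng2, a netrin-G gene on the same strand, was 2.98-fold lower, with 40.1, 31.7 and 42.2 normalized counts in NS-DADm and 110, 106 and 124 in WT. D830024N08Rik, antisense to Tecr, an enzyme gene of very-long-chain fatty acid synthesis, was 2.68-fold lower, with 25.3, 38.4 and 35.0 in NS-DADm and 62.5, 99.2 and 103 in WT. Neither gene had overlapping groups. Gm45819, a single-exon transcript, lies 306 bases from Wee1, a cell cycle kinase gene, on the same strand. It had 54.9, 32.7 and 19.3 in NS-DADm and 59.8, 87.4 and 95.1 in WT, so its groups were separated by 1 narrow gap, and the fold was 2.27.

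Gm29773, which faces Acta1, had 162, 136 and 128 normalized counts in NS-DADm, against 226, 251 and 433 in WT, a 2.14-fold fall. In GENCODE M21 it lies 1522 bases from Acta1 and shares 461 exon bases with the coding gene Nup133, both on the opposite strand. The RefSeq start behind the window shown above lies nearer to Acta1, so GENCODE and RefSeq differ here. The bidirectional-promoter RNA 0610009L18Rik, which lies 136 bases from Actg1, was lower as well, with 150, 136 and 129 in NS-DADm and 234, 249 and 190 in WT, 1.62-fold. Acta1, Nup133 and Actg1 are not among the listed genes, so the 2 RNAs were listed without these coding neighbours.

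**Figure D3:**
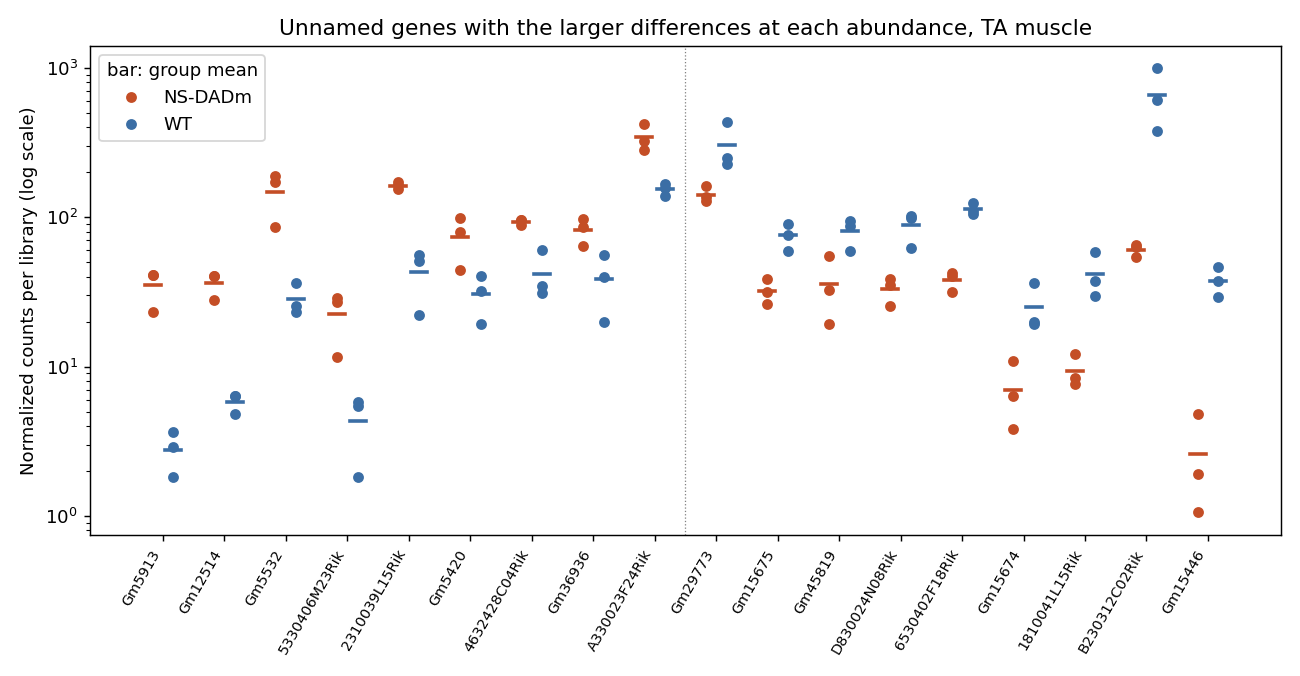
Points give the normalized count (log scale) of each library, 3 NS-DADm to the left and 3 WT to the right for every gene, and bars the group means, for the genes with the largest limma log2 differences in each direction among those chosen to have no overlap between groups, 6 at a mean of 50 or more and 3 below it. Higher genes lie left of the dotted line and lower genes right of it. Among the better-read genes the largest log2 difference is that of B230312C02Rik (mean 60.7 in NS-DADm, 662 in WT).

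Below a mean of 50 normalized counts, the largest differences rested on few reads. Reads were inferred from the step between the values of a library, 0.905 to 1.21 normalized counts a read, and could not be checked against a count table. No unnamed gene was at 0 in any library. Gm5913 was 12.6-fold higher, with 41.2, 23.1 and 41.0 normalized counts in NS-DADm and 3.62, 1.82 and 2.88 in WT. These are 97 inferred reads over the 3 NS-DADm libraries and 9 over the 3 WT libraries, and if they hold, the exact 95% interval of the ratio, which covers counting error only, ran from 6.28 to 28.0. Gm5913 is a processed pseudogene on chromosome 8 that matches G3bp1, a stress granule protein gene, at 98.0% identity over all 1399 of its bases, so its reads may be shared with G3bp1, which is not listed.

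Gm15446, on chromosome 5, was 14.4-fold lower, with 1.06, 1.92 and 4.83 normalized counts in NS-DADm, against 46.2, 29.1 and 37.5 in WT. These are 7 inferred reads over the NS-DADm libraries and 122 over the WT libraries, and if they hold, the exact 95% interval of the ratio of WT to NS-DADm ran from 7.13 to 38.4. Its neighbour Zfp932, a zinc finger gene 52.6 kb away, matches 89.3% of its longest transcript in stretches of at least 90% identity. The longest stretch has 1765 aligned bases at 97.4% identity. Zfp932 is not listed, so the split of reads between it and Gm15446 is uncertain. Copies were sought only among GENCODE M21 transcripts, and other genomic sequence was not searched. There, Gm5913 and Gm15446 were the only genes of the 51 with a copy elsewhere over at least 50% of the longest transcript. For 38, the longest transcript had no match of 100 bases at 90% identity to a transcript of another locus.

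Gm12514, an intergenic RNA on chromosome 4, was 6.18-fold higher (40.1, 40.3 and 27.8 normalized counts in NS-DADm, 6.34, 6.37 and 4.80 in WT). 5330406M23Rik, a single-exon transcript inside Lncpint, itself a long noncoding RNA gene, on the same strand, was 5.18-fold higher (11.6, 26.9 and 29.0 in NS-DADm, 1.81, 5.46 and 5.76 in WT). 1810041L15Rik (Shisal1, a shisa-like membrane protein gene) was 4.45-fold lower, with 8.45, 7.68 and 12.1 in NS-DADm and 29.9, 58.3 and 37.5 in WT. All had separate groups, with limma adjusted p-values of 2.35e-04, 0.0028 and 6.74e-04. With a pseudocount of 5 in place of 1, the log2 difference shrank to 2.34 for Gm5913, to -2.497 for Gm15446 and to 1.52 for 5330406M23Rik, each still past the limma threshold. With adjustment as if 20000 genes had been tested, 5330406M23Rik no longer passed (limma adjusted p = 0.0795).

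The most abundant unnamed genes had small folds. Of the 7 that averaged over 500 normalized counts, 6 are protein-coding, and none differed by more than 1.52-fold. 5031439G07Rik, coding and the most abundant, had 2824, 3086 and 2772 normalized counts in NS-DADm, against 3980, 3812 and 3454 in WT, 1.295-fold lower. 1700025G04Rik had 2924, 2615 and 3090 in NS-DADm and 2294, 2108 and 2347 in WT, 1.28-fold higher. The libraries of both genes were tight enough for groups to stay apart at these small folds.

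2310002L09Rik was 1.34-fold higher with nearly touching groups, at 2563, 2583 and 2088 normalized counts in NS-DADm and 1722, 1608 and 2076 in WT. 9030617O03Rik (Dglucy, D-glutamate cyclase) had 867, 1033 and 698 in NS-DADm and 575, 648 and 650 in WT, 1.39-fold higher. 9530068E07Rik was 1.33-fold lower, at 709, 848 and 702 in NS-DADm and 926, 974 and 1115 in WT. The only noncoding gene of this range, 2310040G24Rik, was 1.36-fold lower, at 930, 886 and 806 in NS-DADm and 1107, 1210 and 1254 in WT. Under quantile normalization of the listed genes, 2310002L09Rik (log2 difference 0.20, limma adjusted p = 0.119) and 1700025G04Rik (0.12, limma adjusted p = 0.295) no longer passed.

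Several unnamed genes lie beside another listed gene. For 8 of the 51 the nearest other listed gene was within 10 kb, and in all 8 the neighbour had the same direction (Gm15674 and Gm15675 are each other's neighbour and both count). Of the other listed genes, 41 had such a neighbour, and 33 of these (80.5%) shared its direction. Slc43a2, Pitpnc1, AI480526, Mdga1, Pon3 and Tbl1xr1 are among the 41, since each lies within 10 kb of an unnamed gene. Their pairs therefore count for the unnamed genes and again for the others. Cd55 is among the 41 as well, since it lies within 10 kb of Gm15674 and Gm15675. The shares of the others, also at the wider distances below, are thus not a separate background. Within 100 kb the counts were 9 of 9 for the unnamed genes and 96 of 133 (72.2%) for the others, and within 500 kb 15 of 24 (62.5%) and 193 of 314 (61.5%). These counts were not tested, and no source used here gives the strand setting of the counting. Reads of overlapping genes on opposite strands therefore cannot be told apart.

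Gm43672 lies 510 bases from Tbl1xr1, on the opposite strand. Tbl1xr1 encodes TBLR1, a subunit of the NCoR corepressor complex itself. Gm43672 had 427, 494 and 302 normalized counts in NS-DADm, against 239, 225 and 210 in WT, and rose 1.81-fold (log2 difference 0.83, SE 0.17, limma adjusted p = 0.0016). Tbl1xr1 had 1011, 1295 and 999 in NS-DADm, against 600, 581 and 705 in WT, and rose 1.75-fold (log2 difference 0.80, SE 0.13, limma adjusted p = 4.56e-04). In both genes every NS-DADm library lay above every WT library, and the folds were close.

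Gm45606 is antisense to Slc43a2, an amino acid transporter gene, with 922 bases of shared exon. Gm45606 had 30.6, 51.9 and 54.3 normalized counts in NS-DADm and 18.1, 21.8 and 9.60 in WT, 2.76-fold higher, and Slc43a2 was 2.103-fold higher at 809 ± 63.0 in NS-DADm and 385 ± 52.1 in WT (SD, n = 3 each). Gm11716 overlaps Pitpnc1, a phosphatidylinositol transfer protein gene, on the opposite strand without a shared exon base. It had 470, 472 and 385 in NS-DADm and 238, 259 and 220 in WT, 1.85-fold higher, beside 1.46-fold for Pitpnc1. 4932422M17Rik shares 1622 exon bases with the noncoding gene AI480526 on the opposite strand, and had 22.2, 25.0 and 38.6 in NS-DADm and 12.7, 6.37 and 9.60 in WT. The pair was 2.99-fold and 2.11-fold higher.

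Among the pairs that fell, Gm44250 lies 366 bases from Pon3, a paraoxonase gene, on the same strand. Gm44250 had 264, 271 and 250 normalized counts in NS-DADm, against 487, 537 and 532 in WT, 1.98-fold lower (log2 difference -0.98, SE 0.11, limma adjusted p = 6.44e-05), and Pon3 was 1.95-fold lower. The folds of the pair were thus close, and whether Gm44250 and Pon3 are separate transcripts was not tested. Gm16758, antisense to the cell adhesion gene Mdga1, was 2.99-fold lower (8.45, 8.64 and 9.66 in NS-DADm, 22.6, 24.6 and 32.7 in WT), and Mdga1 was 2.26-fold lower.

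Gm15674 and Gm15675 overlap each other by 1087 exon bases on opposite strands, beside Cd55, a gene of a complement inhibitor at the cell surface. Gm15674 had 6.34, 3.84 and 10.9 normalized counts in NS-DADm and 36.2, 20.03 and 19.2 in WT, 3.59-fold lower. Gm15675 had 26.4, 31.7 and 38.6 in NS-DADm and 90.5, 76.5 and 59.5 in WT, 2.34-fold lower. Cd55 is also listed and was lower in NS-DADm, by a log2 difference of -1.29 (SE 0.15, limma adjusted p = 7.30e-05). The 3 listed genes of this locus thus fell together, whereas Cd55b, which shares 145 exon bases with Gm15674, is not listed. At a distance of 86222 bases, 2310040G24Rik and Pcyox1, a prenylcysteine oxidase gene, were 1.36-fold and 1.34-fold lower.

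**Figure D4:**
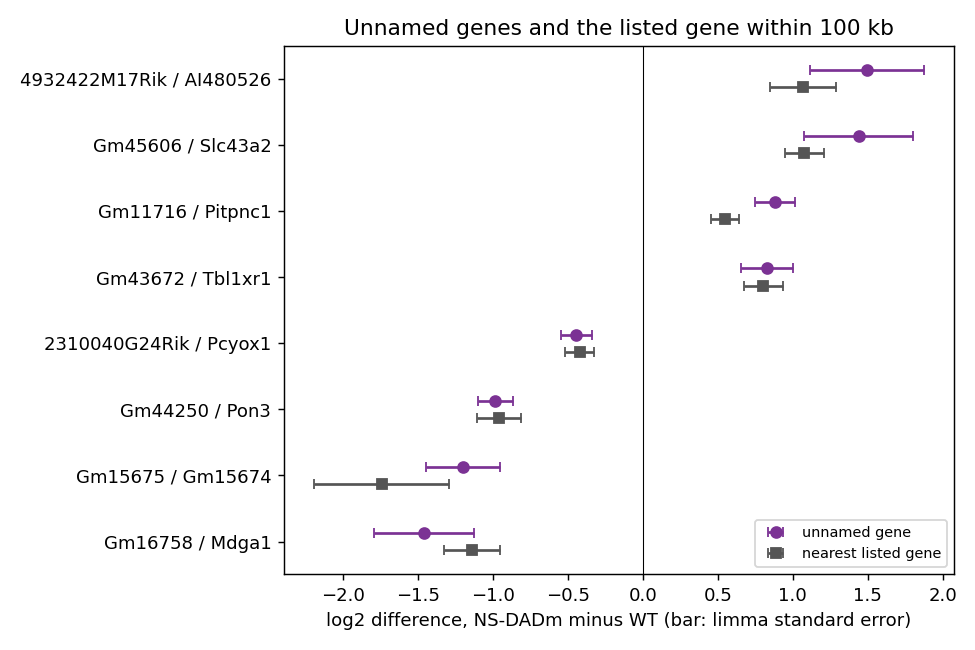
Circles give the log2 difference (NS-DADm minus WT) of an unnamed gene and squares that of the nearest listed gene within 100 kb, with limma standard errors as bars. In all 8 pairs both genes lie on the same side of 0, from Gm16758 and Mdga1 among the lower pairs to 4932422M17Rik and AI480526 among the higher ones.

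Position relative to Ncor1 is given because a knock-in line can keep flanking sequence from the cells in which it was made. On chromosome 11, which holds Ncor1, lay 8 of the 51 genes (15.7%), against 7.79% of the other listed genes with a position, and 4 were within 20 Mb of it (7.84%, against 3.36%). Nearest was Gm16062, antisense to Cops3, a COP9 signalosome gene, 2.498 Mb away, at 48.6, 52.8 and 42.2 normalized counts in NS-DADm and 84.2, 81.9 and 110 in WT, 1.93-fold lower. Gm2a, 7.20 Mb away, had 146, 174 and 104 in NS-DADm and 215, 223 and 250 in WT, 1.62-fold lower. The other 2 were 9530068E07Rik at 9.91 Mb and Gm45606 at 13.1 Mb. Both directions occurred near the locus. A difference between the lines in flanking sequence and an effect of the mutations cannot be told apart for these 4 genes. G3bp1, with which Gm5913 may share reads, also lies on chromosome 11, 6.81 Mb from Ncor1. The same limit holds for any such reads of Gm5913.

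Gm10390, antisense to the RNA-binding protein gene Rbm19, had 51.7, 84.5 and 50.7 normalized counts in NS-DADm and 29.0, 31.9 and 28.8 in WT, 2.09-fold higher with separate groups. Of the remaining genes, Gm13490, D630024D03Rik, Gm26762, 4930552P12Rik and Gm37677, all averaging under 50 normalized counts, were between 2.63-fold and 4.12-fold higher. Gm37677 overlaps Ppp1r12b on the same strand without a shared exon base, so the limit given for Gm36936 and Nedd4 holds. Gm26762 shares 741 exon bases with Gpi1 on the opposite strand, and their reads cannot be told apart here. A330074K22Rik, C030037D09Rik, Gm44421, Gm28651 and Gm32200 were between 1.67-fold and 2.18-fold higher. C030037D09Rik had close replicates, with 113, 108 and 107 normalized counts in NS-DADm and 54.3, 51.9 and 53.8 in WT. It lies 132 bases from Msi2, an RNA-binding protein gene, on the opposite strand. Of the lower ones, 2210013O21Rik (Nbdy, a microprotein of P-bodies), 5730508B09Rik (Fam241a), 6030419C18Rik (Insyn1, an inhibitory synapse protein), 2510009E07Rik, D830039M14Rik and 2310001H17Rik were between 1.45-fold and 2.15-fold lower. 2210013O21Rik was tight in both groups, with 44.4, 35.5 and 39.8 in NS-DADm and 77.0, 79.2 and 78.7 in WT.

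Of 51 gene symbols put on a list of named noncoding RNAs for comparison, 7 are in the table, where 100% of the genes pass the limma test. Higher in NS-DADm were Malat1 (2.55-fold), Pvt1 (2.88-fold), Kcnq1ot1 (1.74-fold) and H19 (1.42-fold), and lower were Mirg (3.45-fold), Meg3 (2.93-fold) and Rian (6.91-fold), which are neighbours in 1 imprinted cluster. These 7 are part of the 23 other noncoding genes of the table, of which 19 were higher and 4 lower.

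Over the libraries, inferred reads of the listed genes came to between 1047804 and 1411470, of which between 12255 and 17835 fell on the 51 genes. Summed over the 51 genes, normalized counts were 14791 to 16268 in NS-DADm and 15854 to 16319 in WT. None of the 11 muscle fibre markers checked is in the table, which lists called genes only, so the labelled tissue could not be checked from it. From the marker lists for 10 other cell types, Mrc1, Igkc, Igha and Itgae are in the table and were higher in NS-DADm. Mrc1 is 1 of 5 macrophage markers and Itgae 1 of 3 T cell markers. Igkc and Igha are 2 of 6 plasma and B cell markers. No marker of the remaining cell types is in the table. The part of these genes in the results above was not tested.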

How the data were processed

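TA muscles were profiled by RNA-seq in 3 NS-DADm and 3 WT mice, grouped by the sample labels. The authors' deposited table holds normalized counts, read counts divided by a size factor, a signal per gene and library that is never negative. The authors' adjusted p-values served only to see that all 709 genes are under 0.05. The deposited means, fold changes, log2 fold changes and p-values hold the study's own comparison and were not used. The methods name STAR, whereas TopHat2 2.1.0 and HTSeq stand, beside DESeq2 1.8.2 and build mm10, in the processing notes of the submitters. Which aligner made the values is unsettled, and no source used here gives the annotation release, the strand setting or the total depth. Within 0.01, values are whole multiples of 1 step per library, taken as 1 read. Columns of per-sample values left unused numbered 0.

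log2(normalized count + 1) was fitted over all 709 genes with limma 3.58.1 in R 4.3.3 (trend, two-sided, Benjamini-Hochberg) without a filter on low values, and the step was tested on simulated data. Folds are ratios of group means. Positions, classes and exon lengths are from GENCODE M21 (GRCm38), matched for 706 genes. Copies were sought among the transcripts of that release with BLAST+ 2.17.0. Other steps used pandas 2.3.3 and scipy 1.17.1.

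Genes given in detail were, in each direction, up to 6 with a mean of at least 50 and 3 below it with the largest log2 differences and no overlap, the 5 most abundant, the 5 most abundant coding, those within 10 kb of a listed gene or 20 Mb of Ncor1, and those with overlapping groups. A result on 1 further item is not reported here, and Gm10390 was chosen through it. The other values that are given, for 17 genes, were chosen after they were seen. Members and lists were chosen with earlier results of these data known. Alternatives covered pseudocounts, a filter, quantile normalization, no trend, stricter adjustment and thresholds, a replicate block and the omission of single libraries.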

Additional observations from a re-analysis of the deposited data

How the results depend on the processing

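Of the 28 higher and 23 lower genes called, 13 and 11 passed with adjustment as if 20000 genes had been tested, which lengthens the adjustment by construction. Where genes had to average 50 or more, fewer genes were fitted and 17 higher genes passed. At 2-fold or more, 11 lower genes remained by count. Widening the neighbour distance to 500 kb gave 24 genes with a listed neighbour, against 9 within 100 kb. When single libraries were left out, the calls ranged from 28 to 28 for higher genes and from 23 to 23 for lower ones. The replicate block gave 28 higher and 23 lower. All 709 listed genes pass to begin with, since they had been called on these libraries, and counts that cannot rise above this say little about how firm the calls are. The numbers only name the mice: same-numbered NS-DADm and WT libraries correlated in their deviations from the group means at -0.15, 0.15 and 0.05. Of 432 alternative values for the 34 genes given in detail, 412 stayed on their side of the limma threshold, 20 no longer passed (18 under the stricter adjustment and 2 under quantile normalization) and 0 changed direction. The 18 were Gm5420, Gm36936, 5330406M23Rik, Gm45819, Gm15674, 5031439G07Rik, 1700025G04Rik, 2310002L09Rik, 2310040G24Rik, 9530068E07Rik, 9030617O03Rik, 4932422M17Rik, Gm45606, Gm16758, Gm2a, Gm16062, Gm10390 and Gm45221, at limma adjusted p-values between 0.0541 and 0.323. Quantile normalization moved the median of all listed genes by -0.017 on the log2 scale. A count test with edgeR on recovered reads was planned and not run, because the table holds too few low values to check the reads.

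Genes tested and not called are not analysed here, and the share of all unnamed genes that changed is not known from this table. Low genes enter such a table only with large folds. Counts by class and position were not tested.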
